A study of Mus musculus with 3 samples.

Results

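The transcripts described here encode the parts of the microtubule system: the kinesin motors (names starting Kif), cytoplasmic dynein (Dync) and its partner complex dynactin (Dctn), alpha, beta and gamma tubulin with the gamma tubulin complex (Tuba, Tubb, Tubg), the augmin complex (Haus) and the centrosomal proteins whose names start with Cep and a digit. Cep170b was left out. Members were chosen by gene name alone, with no use of a measured value. They comprised 90 genes of the 8353 with a listed site, and 420 distinct sites of 40298. Of the prefixes, Cep alone was required to be followed by a digit; the same requirement on every prefix left 83 genes and 391 sites, without Kifc1, Kifc3, Kifc5b and 4 genes of the gamma tubulin complex. The product of Kif1bp is a kinesin-binding protein and not a motor.

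The data were maps of 5-methylcytosine (m5C) in mRNA at 3 stages, with 1 library per stage. All material came from wild-type C57BL/6J females of 7 to 8 weeks. The oocytes of the germinal vesicle (GV) stage, fully grown and still arrested in meiotic prophase, were taken 48 h after 10 IU of PMSG, a hormone that makes follicles grow. Metaphase II (MII) oocytes, which have matured and carry an assembled meiotic spindle, were taken 12 h after 5 IU of hCG, a hormone that triggers maturation, in females given 10 IU of PMSG 44 to 48 h earlier. The 1-cell embryos came from females that were given 5 IU of each hormone and mated with C57BL/6J males, and were taken 24 h after the second hormone. About 200 embryos made up the library. The methods of the study give another hCG dose for the MII oocytes and a wider age range for the donors. The labels name polyA RNA where the methods name depletion of ribosomal RNA, and the conversion steps in the labels differed between oocytes and embryos. Stage and library batch coincide and cannot be told apart.

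Microtubules are hollow polymers of alpha and beta tubulin that gamma tubulin rings nucleate. Kinesins and dynein walk along them or take them apart, and together they build the spindle that separates chromosomes. Mouse oocytes have lost their centrioles, and their spindle is assembled from many small microtubule organising centres and from augmin-dependent branching. Because growing oocytes stop transcribing before they mature, the spindle proteins of the MII oocyte and of the first division are made from stored maternal mRNA. In mRNA, m5C is placed mainly by NSUN2 at cytosines followed by G-rich sequence (Type I sites) and by NSUN6 at the first C of CUCNA (Type II sites).

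Bisulfite turns unmethylated C into U, which is read as T, and leaves m5C as C. Coverage counts the reads that show C or T there, and the level is the percentage of those reads that kept C. A listed site had at least 20 reads, a level of at least 10% and at least 5 unconverted reads. A site that is missing from a list may therefore be unmethylated, below one of these limits or too thinly covered. Intervals in parentheses are 95% intervals (Wilson for shares, binomial order statistics for medians) and cover counting error only, because PCR reads without molecular identifiers are not independent molecules and no stage had a second library.

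The sites whose levels carry the comparison between stages are shown first, each as 21 bases of its transcript in DNA letters, 5′ to 3′, on GRCm38, with the site and the 4 bases after it in capitals. They were picked from the steepest rises with at least 50 reads, and from the highest levels and deepest coverage among sites listed at every stage. Not every site of these ranks is shown. The Dync1i2 site in exon 17 and a site of Cep95 at 100% in the embryo were added. Each site shown held at least 1 G among the 4 bases after it.
Kif14 (chr1:136468406, + strand, coding exon 1): tcccaggcatCGAGGacagaa
Haus7 (chrX:73437492, - strand, 3′ UTR): caagatgatgCAGGGctataa
Haus5 (chr7:30658624, - strand, coding exon 13): ggtctactggCAGAGctcaag
Cep135 (chr5:76597391, + strand, coding exon 6): ccagcagctgCAGGAgaagct
Dync1i2 (chr2:71250854, + strand, coding exon 15): aagctggaatCAGTGagatgt
Dync1i2 (chr2:71260886, + strand, coding exon 17): tggacccactCAGGAagagaa
Kif23 (chr9:61924805, - strand, coding exon 17): atgtgagcgtCGGGTggcagc
Cep41 (chr6:30654820, - strand, 3′ UTR): agtcctttgtCGGGGctgaca
Cep131 (chr11:120070327, - strand, coding exon 16): ccagcggtgtCGGGAgcgcgt
Kif24 (chr4:41391971, - strand, 3′ UTR): acccactactCAGGGacagac
Tubb3 (chr8:123421314, + strand, coding exon 4): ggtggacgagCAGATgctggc
Cep95 (chr11:106789350, + strand, 5′ UTR): cgcgacctctCCTGGcagtat

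The Type II sites listed at every stage were 4, and each read CTCCA from the site on.
Kif17 (chr4:138293807, + strand, coding exon 12): aggagcgggaCTCCAtgctct
Kif14 (chr1:136521205, + strand, coding exon 26): catggccgctCTCCAggatgg
Haus3 (chr5:34168124, - strand, coding exon 2): cttcagcgatCTCCAgcgatc
Cep164 (chr9:45778923, - strand, coding exon 18): aggaggtgatCTCCAgcctcc

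Around some of their sites Tubb2a and Tubb2b are near-identical copies, as are Tuba1a and Tuba1b. In these genes 3 pairs of sites lay in the same letters at the same coding position. They are shown because their reads cannot be assigned to one gene with confidence.
Tubb2a (chr13:34074980, - strand, coding position 826): tctgaccagcCGGGGcagcca
Tubb2b (chr13:34127983, - strand, coding position 826): tctgaccagcCGGGGcagcca
Tuba1a (chr15:98950298, - strand, coding position 1092): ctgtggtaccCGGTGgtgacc
Tuba1b (chr15:98931846, - strand, coding position 1092): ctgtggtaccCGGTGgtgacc
Tuba1a (chr15:98951528, - strand, coding position 167): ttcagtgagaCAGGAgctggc
Tuba1b (chr15:98933032, - strand, coding position 167): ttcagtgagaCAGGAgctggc

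These genes had 159 listed sites at the GV stage, 206 at MII and 245 after fertilisation, in 66, 77 and 71 genes. The share of each whole list was almost the same, at 0.999%, 0.995% and 0.980%. The median level was 19% (16.7 to 20.7) at the GV stage, 20% (17.9 to 21.6) at MII and 24.1% (22.0 to 26.9) for the embryo. The interval of the embryo did not overlap those of the oocytes, whereas the 2 oocyte intervals did overlap. The median coverage fell from 89 reads (71 to 115) through 72 (59 to 84) to 49 (44 to 55). Sites of these genes were covered more thinly than the lists as a whole: 28.3%, 31.6% and 50.2% had fewer than 50 reads, against 20.3%, 22.9% and 41% over all sites. A site with 20 reads has to reach 25% to hold 5 unconverted reads, so a thinly covered list can hold fewer sites of low level. With sites of at least 50 reads alone the lists held 114, 141 and 122 sites in 57, 58 and 44 genes, so that the embryo list was shorter than that of the MII oocyte. The medians were then 17.2%, 19.7% and 16.7%, with the embryo below both oocyte stages. Fewer embryos, less RNA per embryo and fewer reads in the library cannot be told apart as sources of the lower coverage.

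**Figure D1:**
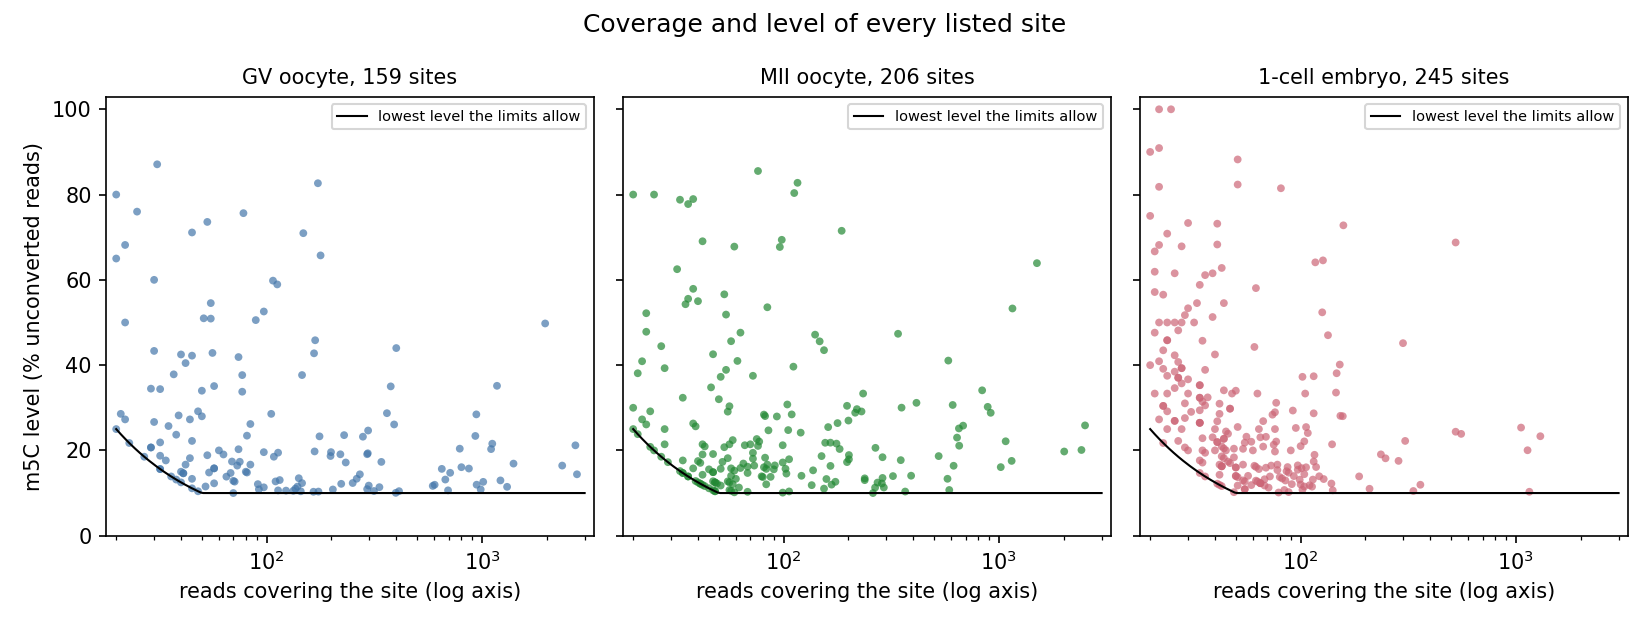
Coverage (x axis, log scale) and m5C level (y axis, percent of unconverted reads) of every listed site of the 90 genes, 1 panel and 1 library per stage, with the lowest level that the list limits allow as a line. The embryo points crowd to the left, with a median of 49 reads against 89 in the GV oocyte, and touch the line between 20 and 50 reads.

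Whole-series facts that bear on these values are few. Coverage summed over all listed sites was between 2616279 and 5285011 reads, of which 43560, 39695 and 21928 lay at sites of these genes in the GV oocyte, MII oocyte and embryo. The rate of unconverted background, recovered from the deposited p-values, had a median over these genes of 0.218%, 0.30% and 0.292%, against 0.264%, 0.367% and 0.354% over all genes, far under the listed levels. All 12 oocyte marker genes had a site at one stage or another. Of 10 granulosa and cumulus genes, Amh and Cyp19a1 each had 1 site, in the MII oocyte alone, with 145 reads together; the list cannot show expression without a site.

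The sites turned over between stages far more than the counts did. Of 420 distinct sites, 177 were listed in the embryo alone, 71 in the MII oocyte alone and 31 in the GV oocyte alone. The oocyte stages shared 73 sites that the embryo lacked, and 49 sites were listed at every stage. As shares these were 42.1%, 16.9%, 7.38%, 17.4% and 11.7%, beside 41.3%, 14.6%, 6.51%, 16.9% and 15.2% over all sites. Of the GV sites 76.7% (69.6 to 82.6) were also listed in the MII oocyte, beside 81.4% over all sites. Of the MII sites 30.1% (24.2 to 36.7) were also listed in the embryo, under the 38.7% over all sites. In the other direction 25.3% (20.3 to 31.1) of the embryo sites were listed at MII and 22.4% (17.7 to 28.1) at the GV stage, beside 32.1% and 25.9% over all sites.

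Coverage and retention moved together. Of the MII sites with 20 to 49 reads 4.62% (1.58 to 12.7) were found in the embryo list, of those with 50 or more but under 200 reads 27.1% (19.2 to 36.7) and of those with 200 reads or more 73.3% (59.0 to 84.0). Over all MII sites the shares were 7.41%, 31.6% and 73%, each within the interval of these genes. Between the oocyte stages the shares were 53.3%, 82.1% and 91.5%. The MII sites that the embryo list also held had a median of 232 reads in the MII oocyte, and those it lacked had 56.

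**Figure D2:**
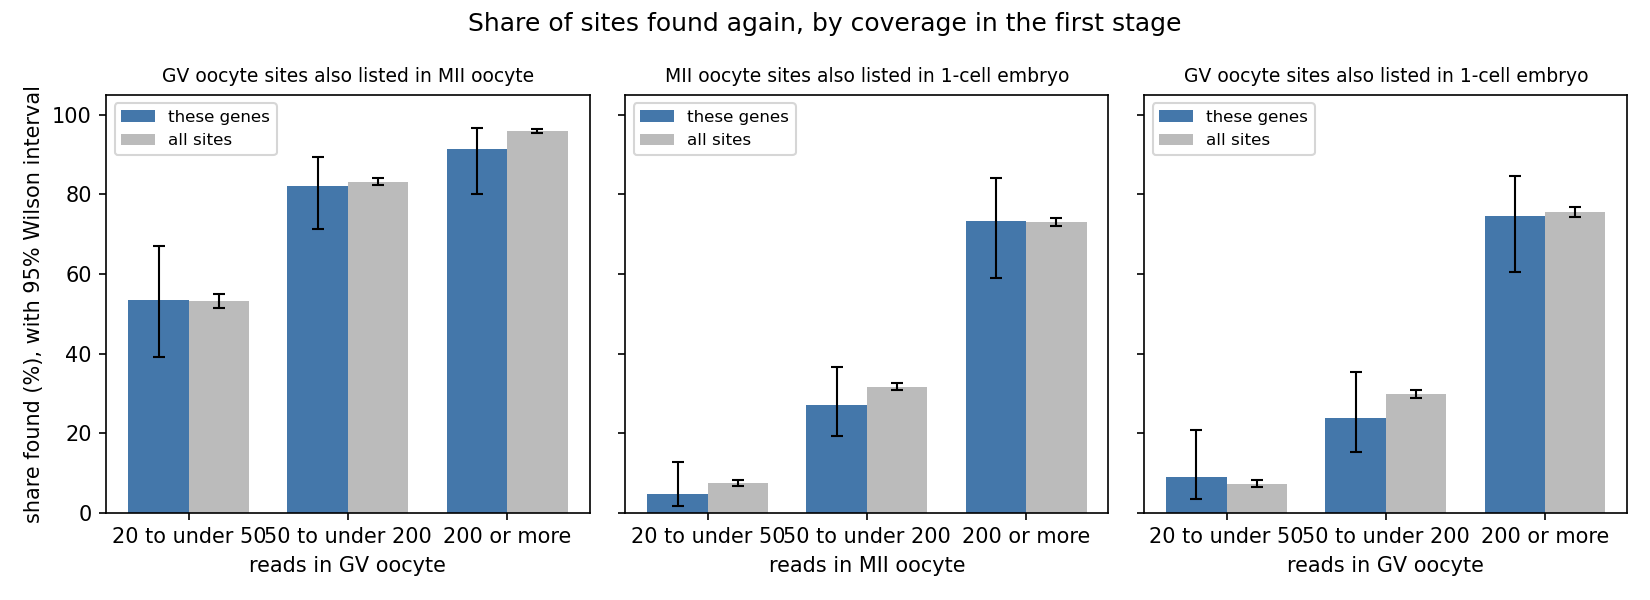
Share of sites (y axis, percent, with 95% Wilson intervals as bars) that the second stage also lists, by the number of reads in the first stage (x axis), for the 90 genes and for all sites. From the MII oocyte to the embryo the share climbs from 4.62% to 73.3% in these genes, and the bars of all sites lie within their intervals.

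Few of the highly methylated oocyte sites were in the embryo list. Of the 20 GV sites at a level of 50% or more, 2 (10%, 2.79 to 30.1) were listed in the embryo, the 3′ UTR site of Cep41 and a coding site of Kif20b, while over all sites 829 of 1756 were (47.2%, 44.9 to 49.5). For the MII oocyte the counts were 6 of 24 (25%, 12.0 to 44.9) and 1265 of 2453 (51.6%). These highly methylated sites of the microtubule genes had a median of 54 GV reads and 47.5 MII reads, while those of the whole lists had 117 and 109; the part of coverage in the difference was not tested. The level of 50% was chosen after the values were seen. Among the sites that the embryo lacked were coding sites of Kif13b, a kinesin of vesicle transport, at 82.7% of 173 GV reads and 80.4% of 112 MII reads, and of Cep78, a centriolar protein, at 70.9% of 148 and 82.8% of 116. Another was a coding site of Dctn1 at 65.7% of 178 and 71.5% of 186.

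Levels at sites listed at both stages of a pair were compared site by site with a two-sided Fisher's exact test on unconverted and converted reads, adjusted by the Benjamini-Hochberg method over all shared sites of the pair. A site is called higher or lower, or is said to rise or fall, where the adjusted p was under 0.05. Between the GV and MII oocyte 122 sites were shared and the median difference was 4.55 points (3.01 to 5.64). Of these, 27 were higher in the MII oocyte (22.1%, where 19.6% of all shared sites were) and 0 were lower (0.965% of all shared sites). Between the MII oocyte and the embryo 62 were shared, with a median difference of 13.1 points (6.84 to 17.1); 32 were higher (51.6%, beside 51.3%) and 3 lower (4.84%, beside 2.45%). Between the GV oocyte and the embryo 55 were shared, with a median of 22.7 points (11.7 to 25.5); 39 were higher (70.9%, beside 66.1%) and 0 lower (1.05%). The shares lie near the background, so the rises in these genes were those of the series. At an unadjusted p under 0.05, 3 sites were lower from the GV to the MII stage and 1 from the GV stage to the embryo. The pairs share libraries, and Fisher's exact test compares the reads of these libraries and not the stages. With all reads divided by 5, which lowers the weight given to each read, 3, 5 and 13 sites were higher, beside 0.672%, 7.2% and 21% of all shared sites and 2.46%, 8.06% and 23.6% of the members. In that setting 0 were lower, beside 0.0232%, 0.0624% and 0.0772% of all. Coverage at the shared sites of the MII oocyte and embryo had a median ratio of 0.377, beside 0.318 over all shared sites. None of the 62 had more reads in the embryo, where 1.98% of all shared sites did.

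**Figure D3:**
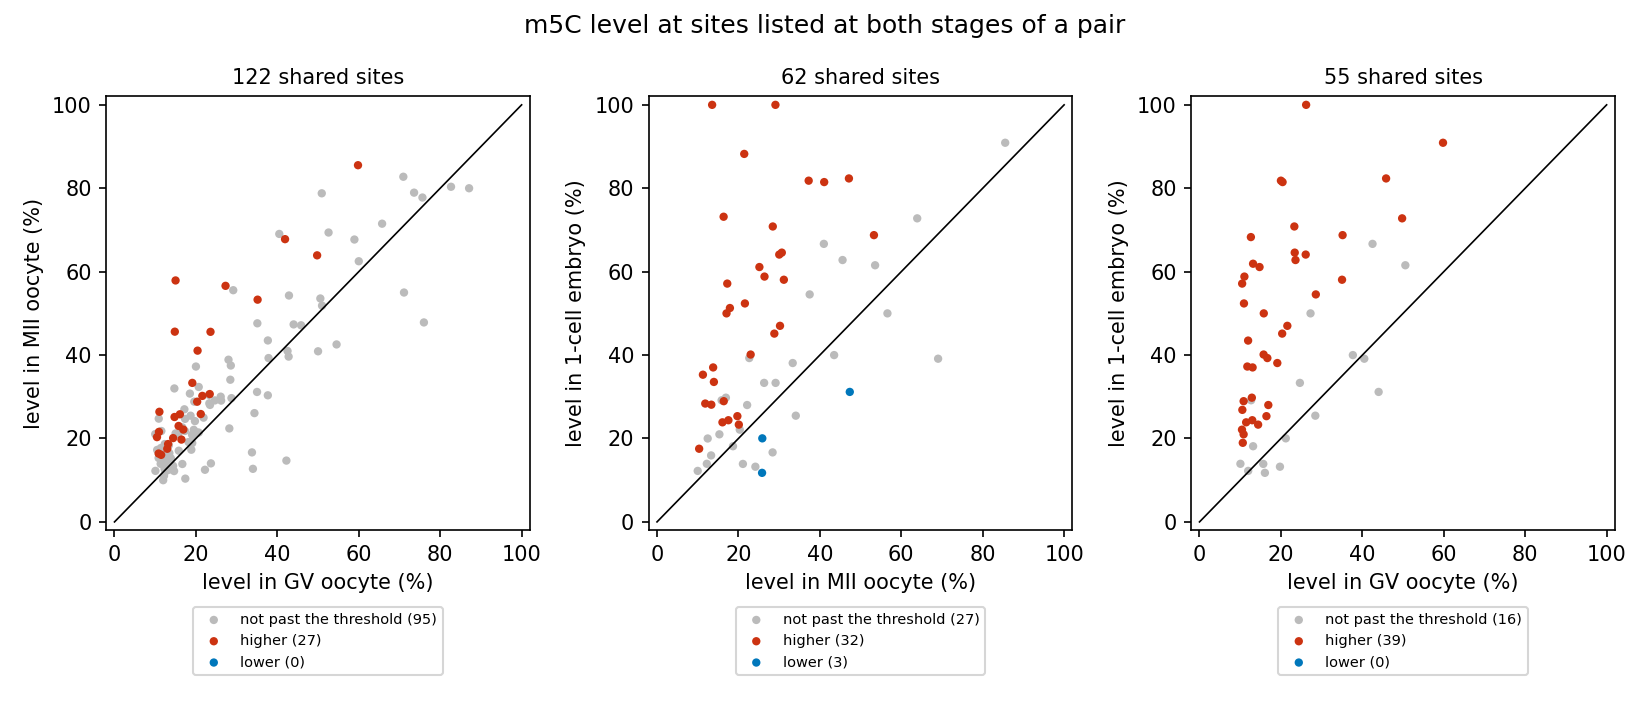
Level at the earlier stage (x axis, percent) against the later stage (y axis, percent) for sites listed at both, 1 panel per pair of stages, with the line of equal levels. Red points, above the line, are the 27, 32 and 39 sites that were higher by Fisher's exact test, and the 3 blue points of the middle panel are Kif20a, Kif20a and Tubb3.

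Kinesins formed the largest group, with 175 sites in 30 genes. Their sites numbered 64, 76 and 101 at the successive stages, with median levels of 18.1%, 20.6% and 22%. The added sites lay mostly in motors of the spindle and of cell division: in 13 such genes (Kif2a, Kif2c, Kif4, Kif11, Kif14, Kif18a, Kif18b, Kif20a, Kif20b, Kif22, Kif23, Kifc1 and Kifc5b, grouped after the values were seen) the number went from 25 and 29 to 63, and all 13 had an embryo site. In the 16 other kinesins it went from 38 and 46 to 33, in 13, 16 and 11 genes. Coverage in the MII oocyte was also higher in the first group, with a median of 165 reads against 58. The division kinesins were 60 reads deep in the embryo and the others 42. The part of coverage in the difference was not tested, and 1 library per stage allows no test between stages.

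Kif14, a motor needed for the completion of cell division, had 14 sites, of which 4, 5 and 12 were listed at the successive stages. Its site in coding exon 1 was at 20.4% of 789 GV reads, 41.1% of 582 MII reads and 81.5% of 81 embryo reads, so that each stage stood clear of the one before. This was the largest rise from the GV oocyte to the embryo among sites with at least 50 reads at both (Fisher's exact test, Benjamini-Hochberg adjusted p = 1.09e-26), and the only site of these genes to stay past the threshold at all 3 pairs of stages with all reads divided by 5. A site in exon 27 went from 14.7% through 25.2% to 61.1%. By contrast the Type II site of the same transcript, in exon 26, was at 28.5% of 942, 34.1% of 836 and 25.5% of 106 reads, and no pair of these passed the threshold. The 9 other embryo sites of Kif14 were in neither oocyte list, so their oocyte coverage and level are unknown. Their levels in the embryo were 10.7% to 37.4%.

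Kif23, the motor subunit of centralspindlin, which organises the spindle midzone, had 1 site that was listed before fertilisation. It was at 49.8% of 1967 GV reads, 63.9% of 1502 MII reads and 72.8% of 158 embryo reads. The rise to the MII oocyte passed the threshold (Fisher's exact test, adjusted p = 1.32e-14), but the further 8.9 points to the embryo did not. The 4 other sites of Kif23 were listed in the embryo alone at 10.2% to 44.3%. Kif20a, another midzone motor, held 2 of the 3 falls from the MII oocyte to the embryo. Its site at 34631318 of chromosome 18 was at 44% of 400, 47.4% of 340 and 31.2% of 77 reads, and that at 34630136 at 16.1% of 803, 25.8% of 682 and 11.8% of 68. Both fell from the MII oocyte to the embryo (adjusted p = 0.0228 and 0.0233 by Fisher's exact test), and neither call held with all reads divided by 5. From the GV oocyte to the embryo neither of these 2 sites passed the threshold (adjusted p = 0.063 and 0.553, Fisher's exact test). A site upstream of both, at 34628948, rose from 30% of 353 MII reads to 64.1% of 117 embryo reads. With all reads counted, sites of this transcript were thus called in opposite directions after the MII oocyte.

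Kif11, the motor that pushes spindle poles apart, had 5 sites. Its 5′ UTR site was at 11.4% of 334 GV reads and 17.7% of 350 MII reads and was not listed in the embryo. The coding site at 37390696 of chromosome 19 was at 23.3% of 176, 28.4% of 109 and 70.8% of 24 reads, a rise after the MII oocyte. The other 3 sites of Kif11 were found in the embryo alone. Kif2c, a microtubule depolymerase, had a site at 17.3% of 341 and 21.8% of 165 oocyte reads, a 3′ UTR site at 12.2% and 11%, and a different coding site at 18.2% of 44 reads in the embryo; no site of Kif2c was shared with the embryo. Its relative Kif2a had no oocyte site and 4 embryo sites at 14% to 18.4% of 34 to 50 reads.

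Kif22, a chromosome-bound motor, had 12 sites. The GV and MII oocytes had the same 3, at 10.5% to 12.4% and 14.1% to 18.7%, and the embryo had 10, of which 1 was an oocyte site. That site was at 10.5% of 315, 17.3% of 197 and 57.1% of 21 reads. The embryo sites without an oocyte counterpart were at 12.3% to 38.9%. Kifc3, a minus-end-directed motor, had no GV site, 1 MII site at 14.6% of 103 reads and 10 embryo sites at 11.6% to 37.5% of 24 to 118 reads, with none in common. In Kif18b, a motor that regulates microtubule plus ends, the GV, MII and embryo lists held 5, 2 and 5 sites, and 1 of the 11 distinct sites was in more than one list.

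Among the transport kinesins the deepest coverage was that of Kif17. This motor, which acts in cilia and dendrites, had 3 sites, all listed at every stage. Its Type II site was at 14.4% of 2764, 20.1% of 2418 and 23.3% of 1299 reads, and a Type I site 81 bases downstream was at 16.4% of 2360, 19.7% of 2011 and 25.4% of 1057. All 3 pairs of stages passed the threshold at both sites, and from the GV oocyte to the embryo the rises were 8.93 and 8.91 points. With all reads divided by 5 the step from the GV oocyte to the embryo alone still passed at both sites. The 3′ UTR site of Kif17 went from 15.7% of 870 through 23% of 639 to 40.1% of 152. Kif5b, the ubiquitous conventional kinesin heavy chain, had a 5′ UTR site at 17.9% of 201 MII reads and 51.3% of 39 embryo reads, and a second site in the embryo alone at 45.8% of 24. Kif13b, with 8 sites, and Kif9, with 5, had oocyte sites alone. A 3′ UTR site of Kif24, which acts at centrioles, rose from 41.9% of 74 to 67.8% of 59 reads between the oocyte stages (adjusted p = 0.0206, Fisher's exact test). This rise did not pass the threshold with all reads divided by 5.

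**Figure D4:**
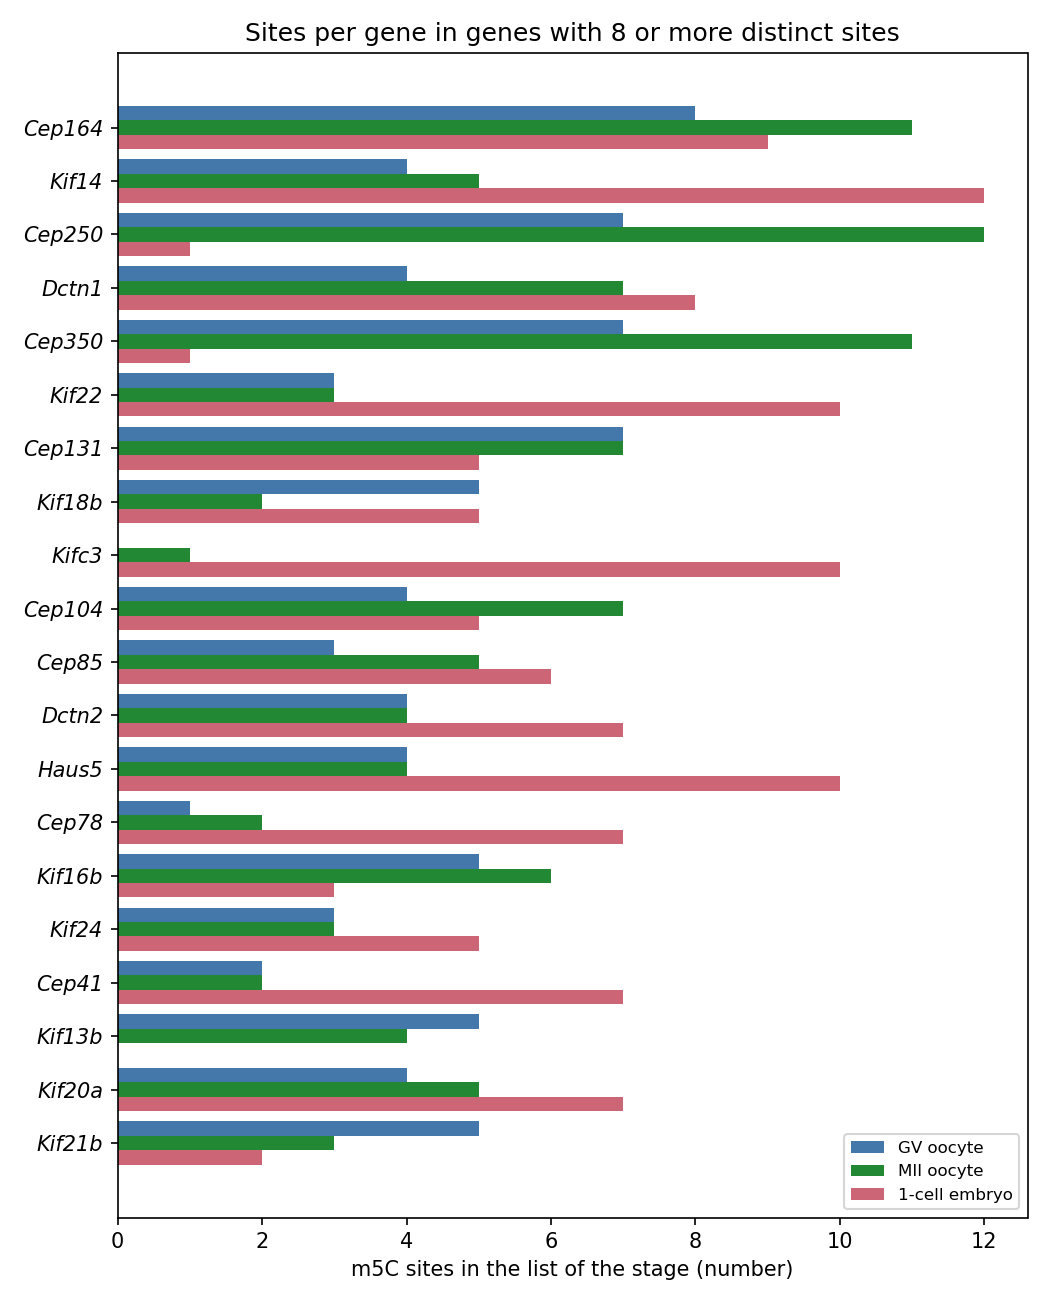
Number of listed sites (x axis) at each stage in the 20 genes with 8 or more distinct sites, which together hold 210 of the 420. Kif14, Kif22, Kifc3 and Haus5 have 10 to 12 sites in the embryo, while Cep250 and Cep350 go from 12 and 11 in the MII oocyte to 1.

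Dynein, the minus-end-directed motor, had few sites, 11 in 5 genes, but held the smallest adjusted p of all these genes. The intermediate chain gene Dync1i2, whose product links the motor to dynactin, had a site in coding exon 17 at 35.1% of 1175 GV reads, 53.3% of 1156 MII reads and 68.8% of 525 embryo reads, and each step passed the threshold. From the GV oocyte to the embryo its adjusted p was 4.22e-36 by Fisher's exact test. The site in exon 15 was at 23.4% of 932, 30.7% of 610 and 64.6% of 127. Dync1h1, the heavy chain that carries the motor domain, had 4 sites at 10.4% to 34%, all in oocytes; its Type II site was at 34% of 50 GV reads and 12.7% of 55 MII reads, a difference that did not pass the threshold. The light intermediate chains were split, with Dync1li1 listed in the embryo alone at 73.3% of 30 reads and Dync1li2 in the MII oocyte alone at 19.4% of 72.

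Dynactin had 35 sites in 5 genes, with 12, 13 and 24 at the successive stages. Dctn1, the large arm that binds microtubules, had 13 sites, of which 4, 7 and 8 were listed. One of them was listed at every stage, at 12.7% of 71, 15.9% of 63 and 29.2% of 24 reads. The site in exon 14 of Dctn1 rose from 11.3% of 266 MII reads to 35.3% of 34 embryo reads. Dctn2, the dynamitin subunit, held a coding site at 35% of 377, 31.2% of 414 and 58.1% of 62 reads, and the step to the embryo passed the threshold. Between the oocyte stages 0 of the 9 shared dynactin sites passed it by Fisher's exact test, where 20.6% of all shared sites did. At an unadjusted p under 0.05 it was also 0 of the 9, beside 3762 higher and 234 lower of all 12954. These 9 sites are too few to set dynactin apart from the series.

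Alpha and beta tubulin, the polymer subunits, had 21 sites in 11 genes, and 19 of the sites were listed in the embryo. Tubb2a and Tubb2b, which share the site shown above, were at 11.5% of 1309, 16.1% of 1020 and 23.9% of 557 reads and at 13% of 1219, 17.5% of 1146 and 24.4% of 525 reads. The 51-base windows around the site are identical in the pair, so a read within them cannot be told apart by sequence. Tubb4b, in coding exon 4, was at 20.3% of 1103, 28.8% of 916 and 45.2% of 299 reads, higher at each step; a pseudogene carries the same window. Tubb3, the class III beta tubulin best known from neurons, was at 21.2% of 2718, 25.9% of 2513 and 20% of 1133 reads. It rose to the MII oocyte and fell to the embryo (adjusted p = 4.64e-04, Fisher's exact test), and its level fell by 5.83 points. With all reads divided by 5 neither the rise nor the fall of Tubb3 passed the threshold.

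Tubb5, a widely expressed beta tubulin, had no oocyte site and 4 embryo sites, at 11% of 209, 11.8% of 110, 12% of 100 and 19.1% of 236 reads. The alpha tubulins had few oocyte sites. Tuba1b was listed at 12.6% of 1014 GV reads and 68.3% of 41 embryo reads, and Tuba1a, with the same letters, at 11.9% of 603 and 43.5% of 23. Both sites were missing from the MII list, where their coverage and level are unknown. Tuba4a was at 10.4% of 367 MII reads and 17.5% of 285 embryo reads. Tuba3a and Tuba3b, best known from testis, and Tubb6 had 1 embryo site each with 22 to 29 reads.

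Gamma tubulin and its complex, which nucleate microtubules, had 20 sites in 6 genes. Tubg1 had 1 MII site at 13% of 238 reads and 4 embryo sites at 21.8% to 32.4%, with none in common. Tubg2 had a site at 10.6% of 696 GV reads and 19% of 116 embryo reads, a rise past the threshold. Tubgcp2, a core subunit of the ring complex, had a coding site at 42.8% of 166 and 39.6% of 111 oocyte reads that the embryo list lacked. Tubgcp3, Tubgcp4 and Tubgcp5 had 1 site each, in oocytes alone, at 18.9% to 50%.

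Augmin, which recruits gamma tubulin to the side of existing microtubules and so multiplies spindle fibres, had 22 sites in 6 genes, and 21 of them were listed in the embryo. No site of Haus6 was listed. Haus5 had 10 sites, 4, 4 and 10 by stage. Its site in coding exon 13 was at 10.9% of 293, 21.6% of 176 and 52.4% of 126 reads, higher at each step, and another 16 bases upstream was at 11.7% of 298 GV reads and 37.3% of 102 embryo reads. A site in exon 6 of Haus5 rose from 16.4% of 165 MII reads to 73.2% of 41. The site in exon 10 went the other way without passing the threshold, at 19.8% of 167, 24.2% of 120 and 13.2% of 68. Of the Haus5 sites 9 also lie in Gm21982, an annotated transcript that overlaps the locus, so reads of the pair cannot be told apart. Haus7 had 1 site, in the 3′ UTR, at 21.4% of 70 MII reads and 88.2% of 51 embryo reads, the largest rise after the MII oocyte among sites with at least 50 reads (Fisher's exact test, adjusted p = 1.61e-12). In Haus3 the single site, of Type II, was at 12% of 945, 10% of 260 and 12.2% of 139, and no step passed the threshold.

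The Cep group had 136 sites in 27 genes, 60, 83 and 65 by stage, and in 15 of the 27 genes the embryo list was shorter than the MII list. In all other families together 21 of 63 genes had fewer sites in the embryo, so this was not particular to Cep. They were 14 of 30 kinesin genes, 4 of 5 of dynein, 3 of 6 of gamma tubulin and its complex, and 0 of the rest. The share over all genes was not counted. Cep sites had a median of 57 reads in the MII oocyte, against 72 over all sites of the 90 genes, and the part of coverage was not tested. Cep250, which tethers centrioles to each other, had 7, 12 and 1 sites, and the embryo site was not one of the oocyte sites. Cep350, a large protein of centrioles and microtubules, had 7, 11 and 1. Their oocyte coverage was thin, at 20 to 105 reads per site. The site of Cep350 that persisted was at 40.5% of 42, 69% of 42 and 39.1% of 23 reads, and no step passed the threshold at these depths. A coding site of Cep250 was at 15% of 40 GV reads and 57.9% of 38 MII reads, a rise past the threshold (chosen after its values were seen).

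Cep164, which builds the appendages that dock a centriole for cilium formation, had 14 sites, 8, 11 and 9 by stage, and 3 of them were of Type II. It had 5 sites listed at every stage. One in coding exon 27 was at 21.6% of 1117, 30.2% of 887 and 47% of 134 reads, higher at each step. Its neighbour 61 bases away was at 16.9% of 1402, 22.1% of 1075 and 28% of 157, and its 3′ UTR site stayed near the limit at 10.1%, 12.2% and 13.9%. The Type II site of Cep164 was at 42.5% of 40, 41% of 61 and 66.7% of 21 reads, and no step passed the threshold. Cep131, a protein of the satellites around centrosomes, held the largest rise between the oocyte stages among sites with at least 50 reads. The site went from 14.8% of 81 to 45.6% of 57 reads (adjusted p = 0.00118, Fisher's exact test). With all reads divided by 5 this rise did not pass the threshold, and the embryo list lacked the site.

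Cep135, a component of the centriole cartwheel, had 1 site, at 45.8% of 168, 47.1% of 140 and 82.4% of 51 reads. The step to the embryo passed the threshold (adjusted p = 5.47e-05, Fisher's exact test), and with all reads divided by 5 that step did not pass. The 3′ UTR site of Cep41 was at 59.8% of 107, 85.5% of 76 and 90.9% of 22 reads, the highest level in the MII oocyte among sites listed at every stage. The 5′ UTR site of Cep95 was at 26.2% of 84, 29.1% of 55 and 100% of 25 reads. Cep192, the scaffold that collects gamma tubulin around spindle poles, had 5 oocyte sites on 23 to 73 reads and none in the embryo. Cep55, which acts in the final cut of cell division, had 1 site, in the embryo alone, at 14% of 93 reads.

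By gene, 62 of the 90 had sites in an oocyte list and in the embryo list, 19 in oocytes alone and 9 in the embryo alone. Genes listed in the embryo alone were 10% of these and 13.6% of all genes with a site, and 54.4% of these were listed at every stage, beside 53.9% of all. Of the 19, 13 were in both oocyte lists (14.4% of the 90 genes, beside 13.4% of all). The other 6 were in the MII list alone (6.67%, beside 6.20% of all), so these shares lie near those of the series. The 9 were Cep55, Dync1li1, Haus1, Kif18a, Kif2a, Tuba3a, Tuba3b, Tubb5 and Tubb6, with 15 sites. The 19 included Kif13b, Kif9, Dync1h1, Cep192, Cep152 and Cep63, and the deepest site of each had a median of 33 reads in the MII oocyte, against 152.5 in the 62. The coding sequences of the 19 were longer, with a median of 3312 bases against 2265, and those of the 9 shorter, with 1353. The parts of coverage and length in the missing embryo sites were not tested.

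The 49 sites listed at every stage had median levels of 19.8%, 26.4% and 40%, and 36 of them (73.5%, 59.7 to 83.8) had a higher value at each step, called or not, beside 67.4% of the 6145 such sites in the series. None had a lower value at each step. In number these were 17 sites of Cep genes, 16 of kinesins, 6 of augmin, 4 of dynactin, 4 of beta tubulin and 2 of dynein. Their median coverage went from 377 through 234 to 77 reads. Called or not, the level of 42 of the 49 in the embryo was above that in the GV oocyte (85.7%, beside 90.2% over all such sites). In 46 the MII level was above the GV level and in 39 the embryo level was above the MII level, beside 5179 and 4998 of the 6145.

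**Figure D5:**
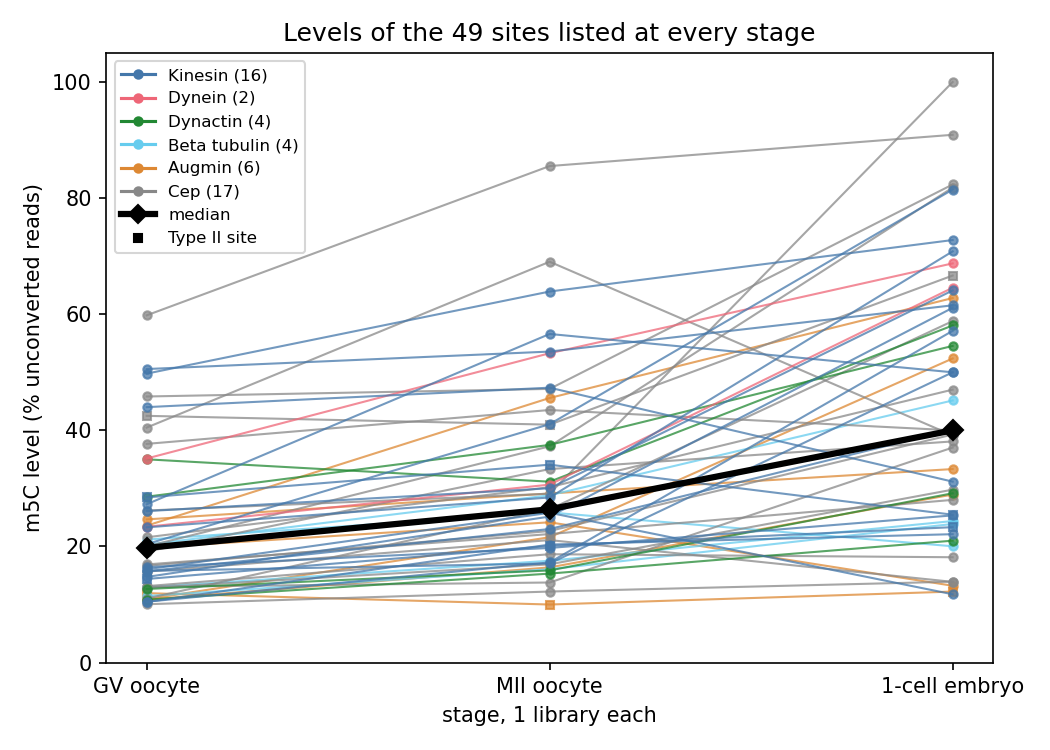
m5C level (y axis, percent) at each stage (x axis, 1 library each) of the 49 sites listed at every stage, 1 line per site coloured by family, with squares for Type II sites and the median in black. The median climbs from 19.8% to 40%, 36 of the lines go up at each step, and the Type II squares of Kif14 and Haus3 end near their starting level.

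The letters around the sites were compared with those of the series. Of the 400 Type I sites, 72.5% (67.9 to 76.6) had at least 2 G among the 4 following bases, against 74.6% of all Type I sites. G was most frequent at the second of these bases, at 66.5%, and least at the first, at 32%. The 177 sites of the embryo alone had fewer G, with a mean of 1.79 ± 0.960 (SD over 170 Type I sites), than the 49 sites of every stage, with 2.2 ± 0.869 (45 Type I sites). Over all sites the means of these classes were 1.86 and 2.25. Type II sites were 20 of 420 (4.76%, 3.10 to 7.24), and 18 of them read CUCCA. Of the 20 Type II sites, 17 lay in coding sequence, and 15 were unpaired in the predicted fold of the site with 50 bases on each side at 37 °C. Type I sites were paired in 61.5% of folds at the site itself and in 72.8% at the third base after it. Of the 9 Type II sites shared by the oocyte stages 1 was called higher, and in 4 the MII level was above the GV level, called or not. The median difference at the 9 was -1.52 points, while over all 122 shared sites it was 4.55. The 5 Type II sites shared by the MII oocyte and the embryo had a median difference of 3.23 points, with 4 levels above and 2 sites called higher. At the 4 shared by the GV oocyte and the embryo the median was 4.60 points, with 3 levels above and 1 site called higher. Over the 62 and 55 shared sites of these genes the medians were 13.1 and 22.7 points. In the series 51.3% and 66.1% of the shared sites of these pairs were called higher, and 83.8% and 90.4% had the higher level in the embryo. With 4 to 9 Type II sites per pair no difference from other sites can be told, and Type II sites of the whole series were not compared.

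Coding sequence held 81.4% (77.4 to 84.9) of the sites and the 3′ UTR 10.2% (7.69 to 13.5), beside 70.1% and 17% over all sites. The coding share of the successive lists was 76.7%, 80.1% and 85.3%. In Cep85, by contrast, 8 of the 10 sites were in the 3′ UTR, one of them at 20% of 60, 37.3% of 51 and 81.8% of 22 reads. Of the sites, 5.24% had another listed site within 10 bases, against 9.93% of all. In the embryo list 21 pairs of neighbours lay within 30 bases, and in 4 of them (Kif14, Kif2a, Dctn1 and Kif22) both sites had the same coverage and the same number of unconverted reads. Over all embryo sites 3.51% of 2847 such pairs did, and in the oocyte lists none of the 4 and 10 pairs of microtubule genes did. The pair of Kif22 lay on adjacent bases, each at 12.3% of 65 reads.

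Reads of near-identical copies limit some of the values. Of the 420 sites, 17 in 11 genes had a window of 51 converted bases that also occurs in a transcript of another locus: Haus5, Kif11, Kifc1 and Kifc5b, Tuba1a and Tuba1b, Tubb2a and Tubb2b, Tubb4b, Tubg1 and Tubg2. Kifc1 and Kifc5b, near-copies of a motor that focuses spindle poles, had 3 and 5 sites that cannot be assigned with confidence where the window is shared. Without alpha and beta tubulin genes the lists held 153, 199 and 226 sites in 60, 72 and 60 genes, so the embryo list then held no more genes than the GV list.

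Other genes of the microtubule system, which the naming rule did not take in, are given for comparison. Of 91 such genes, among them regulators of the spindle such as Numa1, Tpx2 and Aurka, 74 had a site, with 182, 235 and 331 sites at the successive stages. Their median levels of 19.8%, 20% and 23.1% were near the 19%, 20% and 24.1% of the members. At their shared sites the median differences were 4.83, 12.6 and 19.9 points. Of 156, 87 and 76 shared sites, 46, 43 and 48 were higher and 2, 3 and 1 lower. Over all shared sites of the series 19.6%, 51.3% and 66.1% were higher and 0.965%, 2.45% and 1.05% lower. The sites of these 74 genes were covered more deeply, with medians of 203, 168 and 57 reads against 89, 72 and 49 for the members. The part of coverage in these values was not tested.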

How the data were processed

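The authors made RNA bisulfite libraries of GV oocytes, MII oocytes and 1-cell embryos, with 1 library per stage. Per the methods of the study, reads were trimmed, aligned to the converted GRCm38 genome with HISAT2 and the remainder to the converted transcriptome with Bowtie2, and sites were filtered on quality, coverage, level and conversion. The submitters' processing notes name cutadapt 1.13, Trimmomatic 0.36 and Bowtie2 2.2.9. Aligning converted reads can misplace near-identical copies, and the filters leave unlisted sites without a value. The deposited lists give, per site, the read count (coverage), the level as a fraction and a p-value from the authors' test against conversion background. Unconverted reads were recovered as coverage times level, which was whole to within 2.9e-05 reads.

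Levels were compared per shared site with a two-sided Fisher's exact test on unconverted and converted reads and Benjamini-Hochberg adjustment over all shared sites of the pair, at 0.05 (scipy 1.17.1). In simulated lists with 200 changed sites the test was checked first. Regions came from GENCODE M21, a later annotation of the same build than the one the authors used, in the order CDS, 5′ UTR, 3′ UTR, with exon numbers of 1 transcript per site, and folds from RNAfold 2.7.2. Genes were named by rank in rise, fall, level, reads or number of sites, plus a list of 14 known genes; those beyond it were chosen after their values were seen. The members and lists were chosen with earlier results of these data known. Alternatives were a coverage minimum of 50 reads, a level minimum of 20%, thinning to 20 reads, reads divided by 5, other member rules and CUCCA alone. With 1 library per stage no replicate check was possible. The own values of 1 of the 90 genes are not reported here.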

Additional observations from a re-analysis of the deposited data

How the results depend on the processing

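With sites of at least 50 reads the lists held 114, 141 and 122 sites in 57, 58 and 44 genes, so the rise in number from the MII oocyte to the embryo became a fall. The median levels of 17.2%, 19.7% and 16.7% then put the embryo below both oocyte stages, and its coding share was 89.3%. The median coverage was then 156.5, 109 and 87.5 reads in the GV oocyte, MII oocyte and embryo. The higher sites were 27 of 89, 20 of 37 and 23 of 33 (GV to MII, MII to embryo, GV to embryo). Their shares of 30.3%, 54.1% and 69.7% stood beside 24.5%, 52.5% and 69.3% of all shared sites. In the same order 1, 3 and 0 sites were lower, beside 105 of 10366, 158 of 5022 and 51 of 3984 in the series. With levels of at least 20% the lists held 72, 104 and 158 sites with median levels of 34.7%, 30.3% and 33.3%, the highest in the GV oocyte. The median coverage was then 56.5 in the GV oocyte and 39 in the embryo, and 15.2% of the embryo sites were found in the GV oocyte. Higher were 13 of 56, 17 of 35 and 15 of 24 sites (GV to MII, MII to embryo, GV to embryo). As shares these were 23.2%, 48.6% and 62.5%, beside 24.3%, 53.2% and 67.6% of all shared sites.

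Thinned to 20 reads per site, the median levels were 25%, 25% and 30%. The higher sites were 0 of 82, 4 of 49 and 5 of 36. As shares these were 0%, 8.16% and 13.9%, beside 0%, 9.39% and 17% of all shared sites. From the MII oocyte to the embryo none was lower (0.151% of all shared sites), and the median difference over that step was 20 points. The share of MII sites found in the GV oocyte was then 50.6%, and that of embryo sites found there 17.6%. With all reads divided by 5, the higher sites were 3, 5 and 13 and the lower 0. The higher were 2.46%, 8.06% and 23.6% of the members, beside 0.672%, 7.2% and 21% of all shared sites. The cause of these shifts was not tested beyond the fewer reads or sites each setting keeps. The falls of Kif20a and Tubb3 lost their calls with reads divided by 5. So did the rises of Cep131, Kif24 and Cep41 between the oocyte stages, and that of Cep135 from the MII oocyte to the embryo. Rises that kept theirs were those of Kif14, Haus5 and Dync1i2 from the GV oocyte, and of Haus7 and Kif14 from the MII oocyte, to the embryo. Requiring a digit after every prefix, leaving out alpha and beta tubulins, and CUCCA alone changed none of the counts recomputed under them by over 1.5 times. Without alpha and beta tubulins the gene counts of 60, 72 and 60 no longer rose from the GV oocyte to the embryo. No paired analysis was possible because each stage had 1 library. Depth limits the embryo most: at its median of 49 reads a listed site needs about 10% unconverted reads, and a missing site is not shown to be unmethylated.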
